A study of Mus musculus with 24 samples.

Results

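Transient receptor potential (TRP) channels are cation channels that open in response to receptor signaling, lipids, oxidants, temperature or irritants, and most of them let calcium into the cell. Described here are 9 genes that encode them: *Trpa1*, *Trpc1*, *Trpc4*, *Trpc5*, *Trpc6*, *Trpm2*, *Trpm3*, *Trpm4* and *Trpv2*. They are 9 of 27 TRP superfamily genes examined among the 55385 gene identifiers of the deposited counts, of which 44657 had at least 1 count. The genes were taken by name, but *Trpa1* was selected on its large fall on day 13. Values from the comparison of day 13 with the controls are therefore descriptions without a p, and where a count past the thresholds is given there, nothing is read from it.

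RNA was sequenced from the whole hippocampus of 24 mice, 4 in each of 6 groups, to follow gene expression while epilepsy develops after loss of *Tsc1*, a brake on mTOR signaling. All mice carried floxed *Tsc1* alleles (Tsc1f/f) and received tamoxifen, given as 4 daily injections. Control mice had no Cre and were taken on day 8 after the start of tamoxifen (*Tsc1-Cre*- mice, all on Tsc1f/f-Tg(Camk2a-CreERT2-)). The Cre-positive groups carried Tg(Camk2a-CreERT2) and were taken without further drug on day 4, 6, 8 or 13 (*Tsc1-Cre*+ mice), or on day 13 after daily rapamycin, an mTOR inhibitor, at 10 mg/kg from day 4 (*Tsc1-Cre*+-Rap 4 mice). Male and female mice were 16 to 22 weeks old. Because a *Camk2a* promoter drives Cre, deletion was limited to CAMK2A-expressing neurons, while the RNA came from every cell of the dissected tissue. In such bulk RNA, fewer cells of a type and less RNA per cell cannot be told apart. The letters A to D name different animals in each group. The deposited names hold a number series whose meaning the labels do not state. Control and day 8 mice A and B share one series and C and D another. The remaining groups have series of their own, so that time point and number series cannot be told apart in those.

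Libraries held 28208561 to 126435936 counts, 55582027 in the median. *Tsc1* itself was at 103 to 110 CPM (counts relative to the library total, adjusted with edgeR's TMM factors) in controls and at 56.7 to 82.0 CPM in the 20 Cre-positive mice, so that no Cre-positive mouse overlapped the controls. The dissected pieces differed in what they held besides hippocampus. The choroid plexus marker *Ttr*, a thyroid hormone carrier, ranged from 5.69 to 1511 CPM over the 24 mice. The astrocyte gene *Gfap*, which rises in reactive glia, was at 163 to 210 CPM in controls, at 673 and 889 CPM in day 8 mice A and C, and at 365 to 1346 CPM on day 13. Markers of pyramidal neurons, dentate granule cells, astrocytes, microglia and oligodendrocytes were present in every mouse, whereas the monocyte gene *Ccr2* and the choroid plexus gene *Folr1* were at 0 in at least 1.

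By sequence, mammalian TRP channels fall into the subfamilies A, C, M, V, ML (mucolipins) and P (polycystins). In the hippocampus, TRPC channels open downstream of metabotropic glutamate and muscarinic receptors that act through phospholipase C, and they are known for slow depolarizations, plateau potentials and calcium entry that accompany burst firing. TRPM4 passes monovalent ions when calcium rises inside the cell, and TRPM2 is gated by ADP-ribose, a product of oxidative stress.

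**Figure D1:**
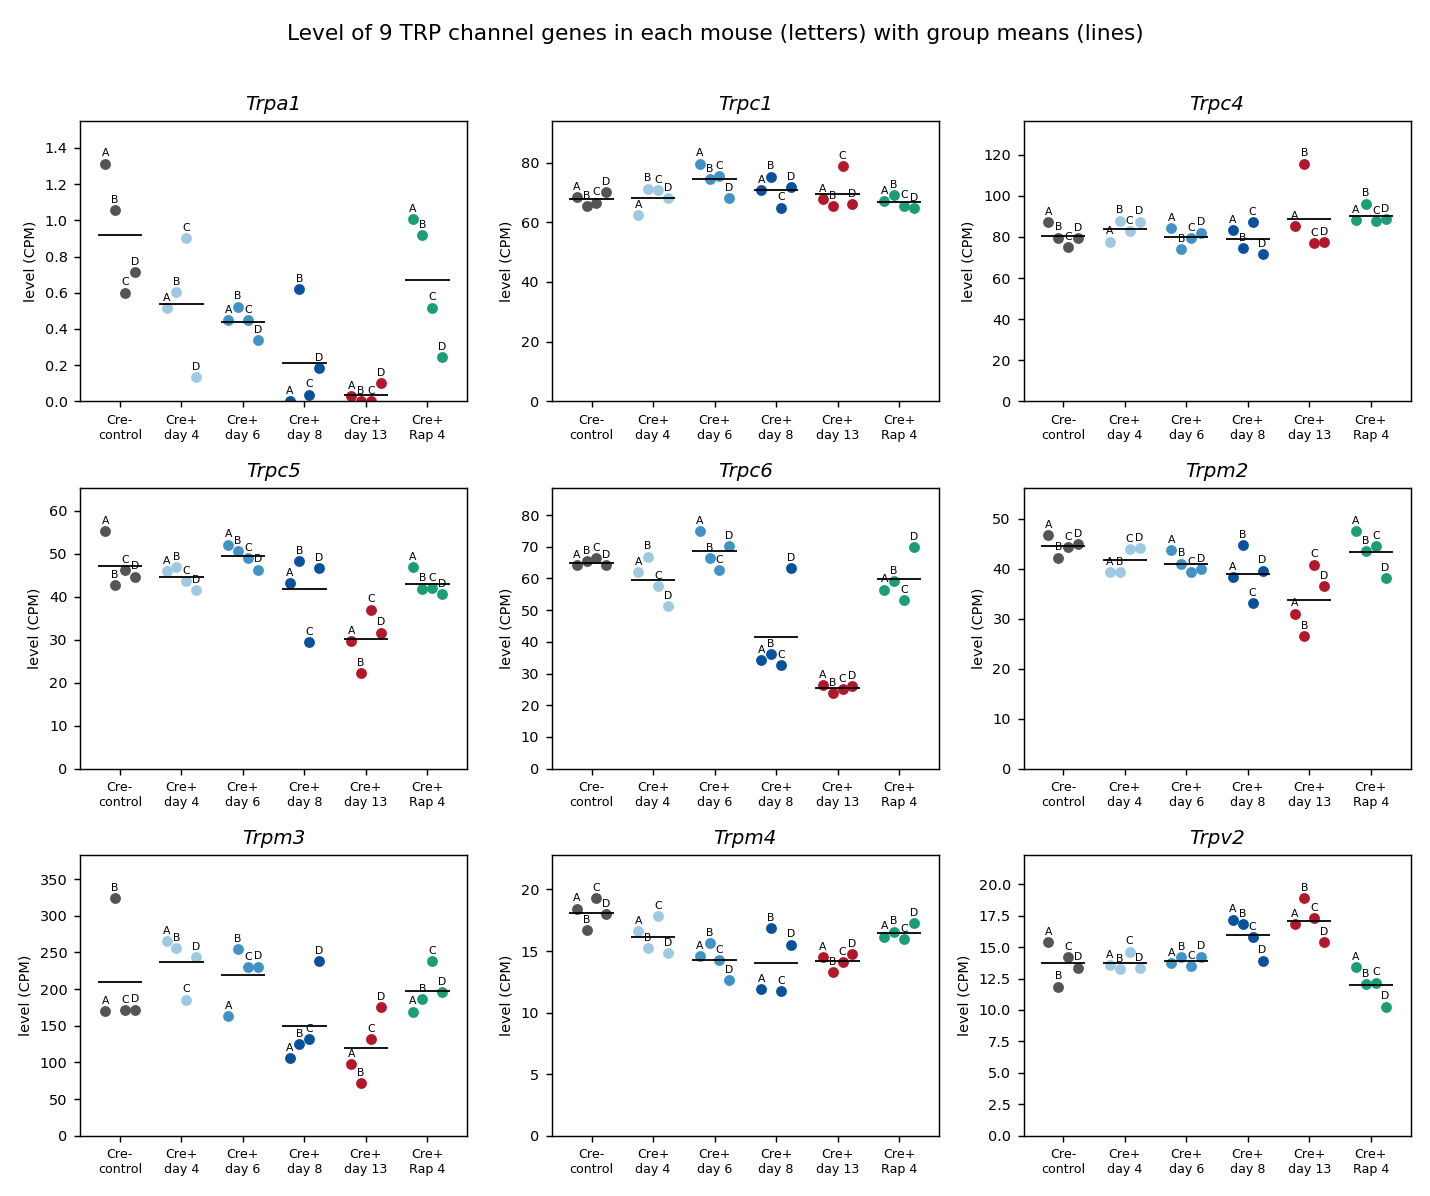
Level of each of the 9 genes (CPM, y axis from 0) in the 24 mice, by group (x axis), with 1 point per mouse labelled by its letter and a line at the group mean. *Trpc6* lay between 23.9 and 26.4 CPM in all 4 day 13 mice and between 32.6 and 36.2 CPM in 3 of 4 day 8 mice, with day 8 mouse D at 63.2 CPM, just below the lowest control.

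The channel genes differed widely in level in the control mice, which had no deletion. Per kilobase of exon, so that genes of different length can be compared, *Trpc6* was the highest of the 9 in controls, at 12.8 ± 0.219 CPM per kb (mean ± SD, n = 4, as throughout). *Trpc4* (10.0 ± 0.642), *Trpc5* (9.40 ± 1.12), *Trpm3* (8.57 ± 3.13) and *Trpc1* (8.42 ± 0.256 CPM per kb) followed, and in that order each overlapped the one after it over the 4 mice, down to *Trpc1*. *Trpm2* (3.58 ± 0.148) and *Trpv2* (3.06 ± 0.331 CPM per kb) overlapped each other and lay below that set. *Trpm4* stood apart at 1.67 ± 0.101 CPM per kb, and *Trpa1* was the lowest at 0.216 ± 0.0763 CPM per kb. Between neighbors, the mice did not overlap from *Trpc6* to *Trpc4*, from *Trpc1* to *Trpm2*, from *Trpv2* to *Trpm4* and from *Trpm4* to *Trpa1*. By group means, *Trpc6* was in first place also on day 4, on day 6 and in Rap 4 mice, and in the fourth place on day 8 and day 13, where *Trpc4* came first.

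**Figure D2:**
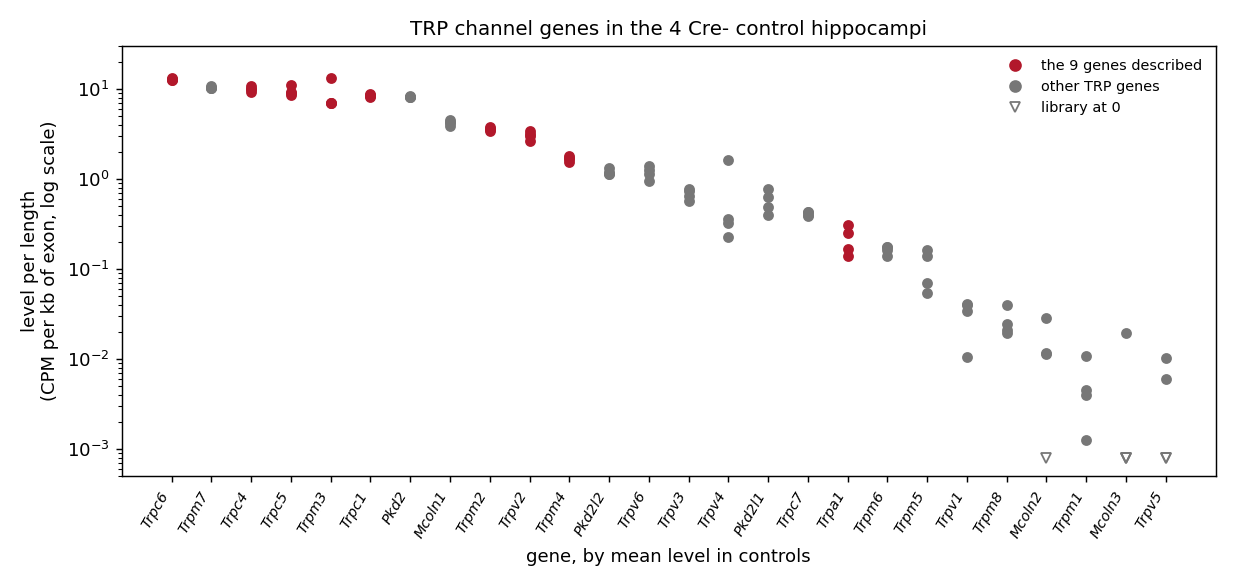
Level per length (CPM per kb of exon, log scale) of 26 of the 27 TRP superfamily genes in the 4 control mice, ordered by mean, with the 9 genes described in red and the others in grey. Open triangles at the lower edge mark libraries with no count, and *Trpc2*, at 0 in all 4 controls, is left out. *Trpc6* leads at 12.8 CPM per kb, *Trpm7* follows at 10.4, and *Trpa1* is in place 18 at 0.216 CPM per kb.

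*Trpa1* encodes the irritant receptor of sensory neurons, a calcium-permeable channel opened by electrophiles such as mustard oil, which has also been studied in astrocytes. The gene (ENSMUSG00000032769.5, chr1:14872648-14918862, minus strand, GRCm38) was barely expressed. Controls A to D held 71, 63, 38 and 37 counts, which is 1.31, 1.06, 0.601 and 0.716 CPM. Day 4 mice held 29, 34, 56 and 8 counts (0.515, 0.605, 0.902 and 0.133 CPM), and day 6 mice 23, 33, 26 and 18 counts (0.450, 0.523, 0.451 and 0.340 CPM). On day 8 the counts were 0, 36, 2 and 10. The mouse at 0 allows a level of up to 0.0526 CPM (3 counts, counting error only), and the others were at 0.620, 0.0371 and 0.183 CPM. The 4 day 8 mice thus ranged from no count to a value inside the control range. Day 13 mice held 2, 0, 0 and 4 counts, 6 in all against 209 in controls, with limits of 0.0254 and 0.0836 CPM for mice B and C at 0. Rap 4 mice held 29, 51, 25 and 12 counts (1.01, 0.920, 0.518 and 0.244 CPM), all above the day 13 mice and partly below the controls.

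The fitted log2 fold change of *Trpa1* was −5.10 on day 13 against controls, and the Rap 4 mice differed from day 13 by 4.60. Both are descriptions, since the gene was picked for that fall, and at so few counts their size depends on the prior count that edgeR adds. The earlier days were not used to pick it, but they share the control mice with the day 13 comparison. Tests of *Trpa1* against these controls are therefore not independent of its choice. On day 6, *Trpa1* fell by 1.06 on the log2 scale (SE 0.276, adjusted p = 0.0268, edgeR's quasi-likelihood test with Benjamini-Hochberg adjustment over all genes tested), and all 4 mice lay below all 4 controls. Over the 8 fits that left out 1 mouse, the fold change was −1.22 to −0.84 with adjusted p of 0.0155 to 0.0756, and the call was kept in 3. With edgeR on all 24 mice the fold change was −1.05, with an adjusted p of 0.529. On day 4 the log2 fold change was −0.77 (SE 0.415, adjusted p = 0.358), on day 8 −2.10 (SE 0.723, adjusted p = 0.0802) and in Rap 4 mice −0.48 (SE 0.375, adjusted p = 0.557), none of which passed edgeR's test on the 8 mice compared. On day 8 the difference did pass with edgeR on all 24 mice (−2.09, adjusted p = 0.0482) and with no filter on low counts (−2.10, adjusted p = 0.0494). The fit on all 24 mice includes the day 13 mice on which the gene was picked. Without day 8 mouse B, which had 36 counts, the day 8 value was −3.61 with an adjusted p of 0.00729. Counts below 50 were even numbers in 59.97% to 62.8% of cases, against 50.1% to 51.7% for higher counts, so a low count of 2 may be a single read pair.

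Over the 5 comparisons with controls, the protein-coding gene with fold changes closest to those of *Trpa1* was *Plk5*, a member of the polo-like kinase family (root mean square difference 0.475 on the log2 scale, of 15586 genes compared). *Plk5* was well above the detection limit, with a mean of 23.6 CPM in controls and 1.07 CPM on day 13, and had log2 fold changes of −0.39, −0.27, −1.74, −4.62 and −0.52 on day 4, 6, 8, 13 and in Rap 4 mice. *Dio3*, which inactivates thyroid hormone (difference 0.919), *Zfp663* (1.05), *Zcchc13* (1.24) and *BC030499* (1.27) came next. Likeness here is a description over fits that share the control mice.

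*Trpc6* encodes a diacylglycerol-gated channel, and within the hippocampus it is known for high expression in the dentate gyrus. After *Trpa1*, it had the largest fold change of the 9 genes on day 13. The gene (ENSMUSG00000031997.9) lies at chr9:8544142-8680741 on the plus strand of GRCm38. Its promoter window is shown beside that of *Trpc1*, which lies on the same chromosome and was not called in any comparison. Each window runs from 250 bases before to 50 after the RefSeq start (GRCm38.p6), 5′ to 3′ along the gene. Capitals mark matches, on either strand, to TGACG, the half-site of the cAMP response element that CREB binds, and to the GC box GGGCGG of SP1-type factors. The *Trpc6* window is chr9:8543892-8544191 (plus strand) and the *Trpc1* window chr9:95750299-95750598 (minus strand).
Trpc6: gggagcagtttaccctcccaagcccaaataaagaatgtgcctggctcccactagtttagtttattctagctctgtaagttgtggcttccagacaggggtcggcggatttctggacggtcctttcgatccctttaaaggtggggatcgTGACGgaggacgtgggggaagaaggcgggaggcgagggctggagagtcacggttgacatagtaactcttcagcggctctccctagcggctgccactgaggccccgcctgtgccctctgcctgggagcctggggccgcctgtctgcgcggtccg
Trpc1: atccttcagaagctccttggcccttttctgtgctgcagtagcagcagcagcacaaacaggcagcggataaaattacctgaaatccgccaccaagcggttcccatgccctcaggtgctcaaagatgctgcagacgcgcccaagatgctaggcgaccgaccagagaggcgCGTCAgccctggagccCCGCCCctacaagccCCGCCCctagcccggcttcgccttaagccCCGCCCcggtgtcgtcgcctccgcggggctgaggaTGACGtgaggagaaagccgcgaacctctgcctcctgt
The *Trpc6* window held 1 TGACG match, at its bases 148 to 152, and no GC box, whereas *Trpc1* held 2 TGACG matches and 3 GC boxes. Of all 32851 promoter windows in the table, 20.8% hold TGACG and 35.7% hold GGGCGG, so both are common letters. A further 2 motifs, AP-1 (TGANTCA, in 7.81% of all windows) and CACGTG, the core of the CLEAR element that the lysosomal regulator TFEB binds (7.15%), were searched in the same way and matched none of the 10 windows of these genes. A match or its absence describes these letters and says nothing of binding. Windows were matched for 7 of the 9 genes, not for *Trpa1* and *Trpm4*.

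*Trpc6* was very even in controls, at 64.1, 65.5, 66.4 and 64.1 CPM in mice A to D. Day 4 mice had 61.9, 66.9, 57.5 and 51.3 CPM and day 6 mice 75.0, 66.5, 62.6 and 70.1 CPM, both overlapping the controls. On day 8 it was 34.2, 36.2 and 32.6 CPM in mice A, B and C, but 63.2 CPM in mouse D. Mice A, B and C lay between the controls and the day 13 mice, while mouse D was just below the lowest control. On day 13 the mice had 26.4, 23.9, 25.0 and 26.0 CPM, and in Rap 4 mice 56.5, 59.1, 53.3 and 69.9 CPM. Rap 4 and day 13 mice did not overlap.

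On day 8, *Trpc6* fell by 0.64 on the log2 scale (SE 0.177, adjusted p = 0.0371, edgeR's quasi-likelihood test), with all 4 mice below all 4 controls. It was the only 1 of the 9 genes called on day 8, when 3.99% of all genes tested were called. A call required an adjusted p under 0.05 together with a log2 fold change of at least 0.5 in either direction. With the number series as a block in edgeR's test, the fold change was −0.65 (adjusted p = 0.0360). Mice A and B of one series and mouse C of the other were low, while mouse D of that other series was just below the lowest control. Leaving out mouse D gave −0.91 with an adjusted p of 3.31e-05, while leaving out any other mouse gave −0.65 to −0.54 with adjusted p of 0.0683 to 0.110, so that the call was lost. Against day 6, the day 8 difference of −0.72 (SE 0.182) had an adjusted p of 0.103, and −0.996 with an adjusted p of 6.76e-04 without mouse D.

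Rap 4 mice had more *Trpc6* than day 13 mice by a log2 fold change of 1.23 (SE 0.0981, adjusted p = 1.54e-04, edgeR's quasi-likelihood test), a 2.34-fold difference, and the call was kept in 8 of 8 fits that left out 1 mouse. Rap 4 mice differed from controls by −0.11 (SE 0.0698, adjusted p = 0.438), with overlapping mice. The day 13 value against controls was −1.35 (SE 0.0660). An F test over the other 5 groups, which leaves out day 13, gave *Trpc6* an adjusted p of 0.00563, under 0.05 in 20 of 20 fits that left out 1 mouse.

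Beside these values, the 4 markers of dentate granule cells (*Prox1*, *Dsp*, *C1ql2* and *Calb1*) are given. On day 8, 3 had a log2 fold change below 0 and 1 above 0, and 0 were called, beside 3.99% of all genes. On day 13 all 4 were below 0, and only *Calb1* (−1.19) was past both thresholds, beside 16.5% of all genes. The 4 genes summed to 351 to 387 CPM in controls, 242 to 348 CPM on day 8, 213 to 328 CPM on day 13 and 357 to 458 CPM in Rap 4 mice. *Calb1*, the calcium buffer calbindin of granule cells, was at 74.6 to 83.9 CPM in controls, at 45.5, 64.0, 55.3 and 81.1 CPM in day 8 mice A to D, and at 23.7 to 48.0 CPM on day 13. Day 8 mouse D, just below the controls for *Trpc6*, was within their range for *Calb1*. *Prox1*, the granule cell transcription factor, differed from controls by −0.37 on day 8 (SE 0.130, adjusted p = 0.0888) and by −0.20 on day 13. Per mouse, *Prox1* was at 126 to 142 CPM in controls and at 98.6, 75.3, 128 and 112 CPM in day 8 mice A to D. By *Prox1*, mouse D was thus below every control, and mouse C, with low *Trpc6*, was within their range. The sum of the 4 genes in mouse D, 348 CPM, was also below every control. Day 8 mouse B had low *Trpc6* with *Gfap* at 126 CPM, below the controls, whereas mice A and C had low *Trpc6* with high *Gfap*. The part of granule cell content in the *Trpc6* values was not tested.

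*Trpc5*, an X-linked gene for a receptor-operated channel of pyramidal neurons (ENSMUSG00000041710.4), had 55.3, 42.6, 46.1 and 44.6 CPM in controls. Day 8 mice had 43.1, 48.2, 29.5 and 46.6 CPM, day 13 mice 29.7, 22.2, 37.0 and 31.6 CPM, and Rap 4 mice 46.8, 41.8, 42.0 and 40.6 CPM. Only mouse C stood low on day 8, and all 4 day 13 mice lay below every control and every Rap 4 mouse. Day 4 (44.5 ± 2.34 CPM) and day 6 (49.4 ± 2.49 CPM) overlapped the controls (47.2 ± 5.60 CPM). The log2 fold change on day 13 was −0.64 (SE 0.156). Rap 4 mice were higher than day 13 mice by 0.496 (SE 0.148, adjusted p = 0.0290, edgeR's quasi-likelihood test), which passed the p but fell just short of the fold minimum. On day 8 it was −0.17 (SE 0.138, adjusted p = 0.462).

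*Trpc4* encodes the closest relative of TRPC5. Its group means were 80.3 ± 5.15 CPM in controls, 84.0 ± 4.74 on day 4, 79.9 ± 4.41 on day 6, 79.1 ± 7.31 on day 8, 88.8 ± 18.3 on day 13 and 90.2 ± 4.07 CPM in Rap 4 mice. Day 13 mouse B stood out at 116 CPM, against 76.9 to 85.1 CPM in the other 3. Rap 4 mice lay above all controls (87.7 to 96.2 CPM against 74.9 to 87.3 CPM), but the log2 difference of 0.18 (SE 0.0524) had an adjusted p of 0.0835 by edgeR's quasi-likelihood test. *Trpc1*, a subunit that joins TRPC4 and TRPC5 in mixed channels, varied least of the 9 genes, from 62.4 to 79.6 CPM over all 24 mice. Its largest tested difference was 0.13 on day 6 (SE 0.0447, adjusted p = 0.0777), and on day 13 it was 0.05 (SE 0.0790). None of its or *Trpc4*'s differences passed the test.

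The shares of 4 TRPC genes in their summed level are described here without a test. *Trpc7* is not in the sum, so these are not shares of all TRPC transcripts. Summed per kilobase over *Trpc1*, *Trpc4*, *Trpc5* and *Trpc6*, the level was 40.7 ± 1.64 CPM per kb in controls, 35.2 ± 3.44 on day 8, 30.7 ± 1.17 on day 13 and 39.8 ± 1.34 CPM per kb in Rap 4 mice. *Trpc6* made up 31.6% ± 1.61 of that sum in controls, 23.0% ± 5.71 on day 8, 16.3% ± 1.28 on day 13 and 29.5% ± 2.79 in Rap 4 mice. The share of *Trpc4* was 24.6% ± 0.857 in controls and 35.9% ± 6.67 on day 13. Since shares of a sum are tied to each other, they restate the levels above.

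**Figure D3:**
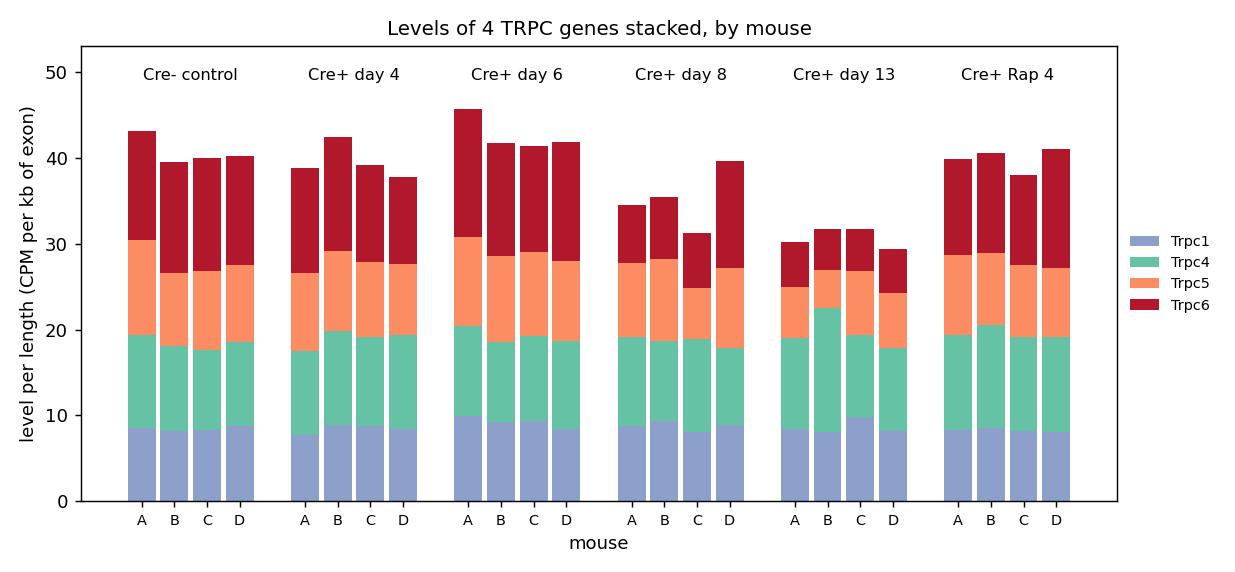
Level per length (CPM per kb of exon, y axis from 0) of *Trpc1*, *Trpc4*, *Trpc5* and *Trpc6*, stacked for each of the 24 mice (x axis, by group). The red *Trpc6* part is thin in day 8 mice A, B and C and in all day 13 mice, and the total is 29.3 to 31.7 on day 13 against 39.5 to 43.1 CPM per kb in controls.

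*Trpm3* encodes a channel opened by the steroid pregnenolone sulfate and by heat, and it is strongly expressed in the choroid plexus as well as in neurons. The gene (ENSMUSG00000052387.16, chr19:22139046-22995410, plus strand) carries the microRNA gene *Mir204* inside an intron, as its relative *Trpm1* carries *Mir211*. The mature 5p strands, from RefSeq (GRCm38.p6, chr19:22750610-22750631 and chr7:64205831-64205852, both plus strand), are shown because the TRPM hosts share them, with the seed (bases 2 to 8) in capitals.
miR-204-5p: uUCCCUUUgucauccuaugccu
miR-211-5p: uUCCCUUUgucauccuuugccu
They agree in 21 of 22 bases and have 1 seed, UCCCUUU. The microRNAs themselves were not measured by these libraries.

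Control mice had 170, 324, 172 and 172 CPM of *Trpm3*, with mouse B far above the rest. Day 4 mice had 265, 256, 186 and 243 CPM, day 6 mice 163, 254, 230 and 231 CPM, and day 8 mice 106, 125, 132 and 239 CPM. Day 13 mice had 98.2, 71.6, 132 and 175 CPM, and Rap 4 mice 169, 186, 239 and 196 CPM. The groups overlapped in every comparison. *Ttr* moved with these values: it was at 1511 CPM in control B against 18.6 to 40.1 CPM in the other controls, and at 581 CPM in day 8 mouse D against 6.49 to 19.3 CPM in the other day 8 mice. In 5 of 6 groups the mouse with the most *Ttr* had the most *Trpm3*. The 10 choroid plexus markers summed to 231 to 2895 CPM in controls, 188 to 1696 on day 4, 202 to 1883 on day 6, 183 to 1222 on day 8, 211 to 836 on day 13 and 168 to 880 CPM in Rap 4 mice.

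On day 8 the log2 fold change of *Trpm3* was −0.47 (SE 0.269, adjusted p = 0.278, edgeR's quasi-likelihood test), and with the *Ttr* level as a covariate −0.25 (SE 0.0728, adjusted p = 0.0569). Without mouse D it was −0.78 with an adjusted p of 0.0395. The day 13 value was −0.80 (SE 0.300). Rap 4 mice were higher than day 13 mice by 0.71 (SE 0.241, adjusted p = 0.0468, edgeR's quasi-likelihood test), a call that was kept in 1 of 8 fits without 1 mouse and lost with the *Ttr* covariate (0.77, adjusted p = 0.0559). Day 13 mice A and B had the lowest *Trpm3* of all mice and *Ttr* of 234 and 121 CPM, more than 3 of the 4 controls. Apart from the fits with the *Ttr* covariate, the part of choroid plexus content in the *Trpm3* values was not tested. Exons of *Trpm3* overlap *Gm27151* and *C330002G04Rik* on the opposite strand, and the strand setting of the counting is not given in the sources used here.

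**Figure D4:**
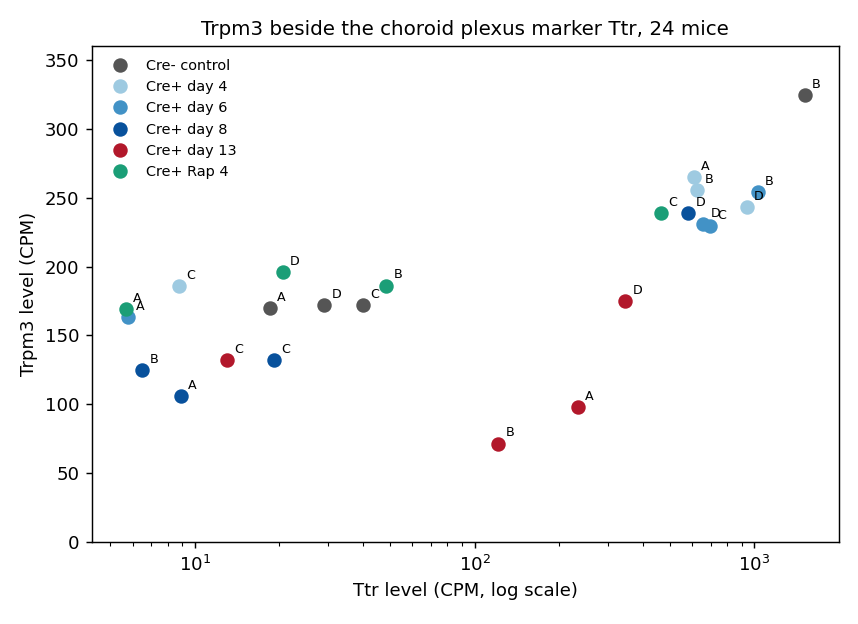
*Trpm3* (CPM, y axis from 0) against *Ttr* (CPM, log scale) in the 24 mice, colored by group and labelled by mouse. Control mouse B lies at the upper right with 324 CPM of *Trpm3* and 1511 CPM of *Ttr*, and day 13 mice A and B lie lowest, at 98.2 and 71.6 CPM of *Trpm3*.

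*Trpm4* encodes the calcium-activated monovalent cation channel that depolarizes neurons after calcium entry (ENSMUSG00000038260.10, chr7:45302632-45333780, minus strand). Controls had 18.4, 16.7, 19.3 and 18.0 CPM, and day 4 mice 16.6, 15.2, 17.9 and 14.8 CPM. Day 6 mice had 14.6, 15.7, 14.3 and 12.6 CPM, day 8 mice 11.9, 16.8, 11.8 and 15.5 CPM, day 13 mice 14.5, 13.3, 14.1 and 14.8 CPM, and Rap 4 mice 16.2, 16.6, 15.98 and 17.2 CPM. All day 6 and day 13 mice lay below all controls, and on day 8 mice A, C and D did so. The day 6 difference was −0.34 (SE 0.0730, adjusted p = 0.00907, edgeR's quasi-likelihood test), which passed the p but not the fold minimum. Day 8 gave −0.36 (SE 0.118, adjusted p = 0.0660), day 13 −0.35 (SE 0.0878) and Rap 4 −0.12 (SE 0.0660, adjusted p = 0.355) against controls. Over the 5 groups without day 13, *Trpm4* differed with an adjusted p of 0.0295 by edgeR's F test, in 19 of 20 fits that left out 1 mouse.

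*Trpm2*, the oxidant- and ADP-ribose-gated channel of neurons and microglia (ENSMUSG00000009292.18), had means of 44.6 ± 1.85 CPM in controls, 41.8 ± 2.72 on day 4, 41.1 ± 1.97 on day 6, 39.0 ± 4.78 on day 8, 33.7 ± 6.28 on day 13 and 43.5 ± 3.98 CPM in Rap 4 mice. The 4 day 13 mice, at 31.0, 26.5, 40.8 and 36.5 CPM, lay below the lowest control of 42.3 CPM, with a log2 fold change of −0.39 (SE 0.132). No tested difference passed: day 8 gave −0.19 (SE 0.0813, adjusted p = 0.158) and Rap 4 against day 13 gave 0.35 (SE 0.142, adjusted p = 0.0822) by edgeR's quasi-likelihood test. The microglial markers, which mark a known source of *Trpm2*, summed to 222 to 268 CPM in controls, 197 to 270 CPM on day 13 and 165 to 189 CPM in Rap 4 mice. Their part in the *Trpm2* and *Trpv2* values was not tested.

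*Trpv2* encodes a calcium-permeable channel of the vanilloid subfamily that is known from macrophages, glia and large sensory neurons (ENSMUSG00000018507.16, chr11:62574486-62600515, plus strand). Its day 13 mice all lay above all controls, mouse D by less than the rounding of the values below. The share of all genes that part in this way was not counted. Controls had 15.4, 11.8, 14.2 and 13.4 CPM, with narrow groups on day 4 (13.3 to 14.6 CPM) and day 6 (13.5 to 14.2 CPM). Day 8 mice had 17.2, 16.9, 15.8 and 13.9 CPM, day 13 mice 16.8, 18.9, 17.3 and 15.4 CPM, and Rap 4 mice 13.4, 12.1, 12.2 and 10.3 CPM. On day 8, mice A, B and C lay above every control and mouse D among them. Every day 13 mouse lay above every Rap 4 mouse.

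Rap 4 mice had less *Trpv2* than day 13 mice (log2 fold change −0.52, SE 0.111, adjusted p = 0.00697, edgeR's quasi-likelihood test), kept as a call in 6 of 8 fits without 1 mouse. Against controls, *Trpv2* differed by 0.22 on day 8 (SE 0.0969, adjusted p = 0.153), 0.33 on day 13 (SE 0.104) and −0.19 in Rap 4 mice (SE 0.0994, adjusted p = 0.352). Over the 5 groups without day 13 it differed with an adjusted p of 0.00967 by edgeR's F test, in 19 of 20 fits. Glial and vascular markers differed between these groups as well. Of 5 astrocyte markers, 3 were called lower and 1 higher in Rap 4 than in day 13 mice. All 6 microglial, 4 macrophage and monocyte, and 4 endothelial markers had a fold change below 0, of which 2, 2 and 3 were called. Beside these counts, 21.1% of all genes were called. All 4 CA3, 4 oligodendrocyte, 4 pericyte and smooth muscle, and 10 choroid plexus markers were below 0 too, with 0 called. Of 4 excitatory neuron and 4 CA1 markers, 2 and 2 were called lower. The 4 dentate granule cell, 3 tested Cajal-Retzius and 4 thalamus markers were above 0, with 2, 2 and 1 called. The summed astrocyte markers were 1131 to 2072 CPM on day 13 and 840 to 887 CPM in Rap 4 mice. The 4 macrophage and monocyte markers summed to only 11.03 to 15.5 CPM on day 13 and 6.75 to 10.7 CPM in Rap 4 mice.

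Counted together, 0 of the 9 genes were called on day 4 (0.68% of all genes tested), 1 on day 6 (*Trpa1*, 1.32% of all genes), 1 on day 8 (*Trpc6*, 3.99%) and 0 in Rap 4 mice against controls (1.41%). The day 6 call of *Trpa1* rests on the control mice that entered its choice, and nothing is read from it. On day 13, 3 genes were past both thresholds (*Trpa1*, *Trpc5* and *Trpc6*, 16.5% of all genes), a count that the choice of *Trpa1* partly fixed and from which nothing is read. Between Rap 4 and day 13 mice 4 were called (*Trpa1*, *Trpc6*, *Trpm3* and *Trpv2*, 21.1% of all genes), among which *Trpa1* was fixed by its choice for low day 13 values. Between day 8 and day 6 there were 0 (0.229%), and 3 of the 9 differed among the groups without day 13 (*Trpc6*, *Trpm4* and *Trpv2*, 31.1% of all genes). That last share is near the share of all genes, and is no result about the channels. At an unadjusted p under 0.05 by edgeR's quasi-likelihood test, 1 gene passed on day 4 (*Trpm4*, 18.4% of all genes), 1 in Rap 4 mice against controls (*Trpc4*, 18.1%) and 3 between day 8 and day 6 (*Trpc6*, *Trpm3* and *Trpv2*, 17.1%). DESeq2 called 0, 0 and 1 of the 9 in these comparisons. Where genes were called, 4 had an unadjusted p under 0.05 on day 6 (24.2% of all genes) and 5 on day 8 (28.9%). Between Rap 4 and day 13 mice it was 7 (43.2%), all by edgeR's quasi-likelihood test. Each of these counts includes *Trpa1*, and the genes were chosen with earlier results known, so nothing is read from them. As a median over the 9 genes, the log2 fold change was −0.08 on day 4, 0.02 on day 6, −0.19 on day 8, −0.39 on day 13 and −0.11 in Rap 4 mice, against medians of −0.0047, −0.02, −0.03, −0.04 and 0.01 over all genes tested. Over the other TRP superfamily genes tested, the medians were −0.08, −0.10, 0.04, 0.14 and 0.02, in that order. The 9 genes were chosen with earlier results known, and *Trpa1* on its day 13 fall, so nothing is read from their medians.

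**Figure D5:**
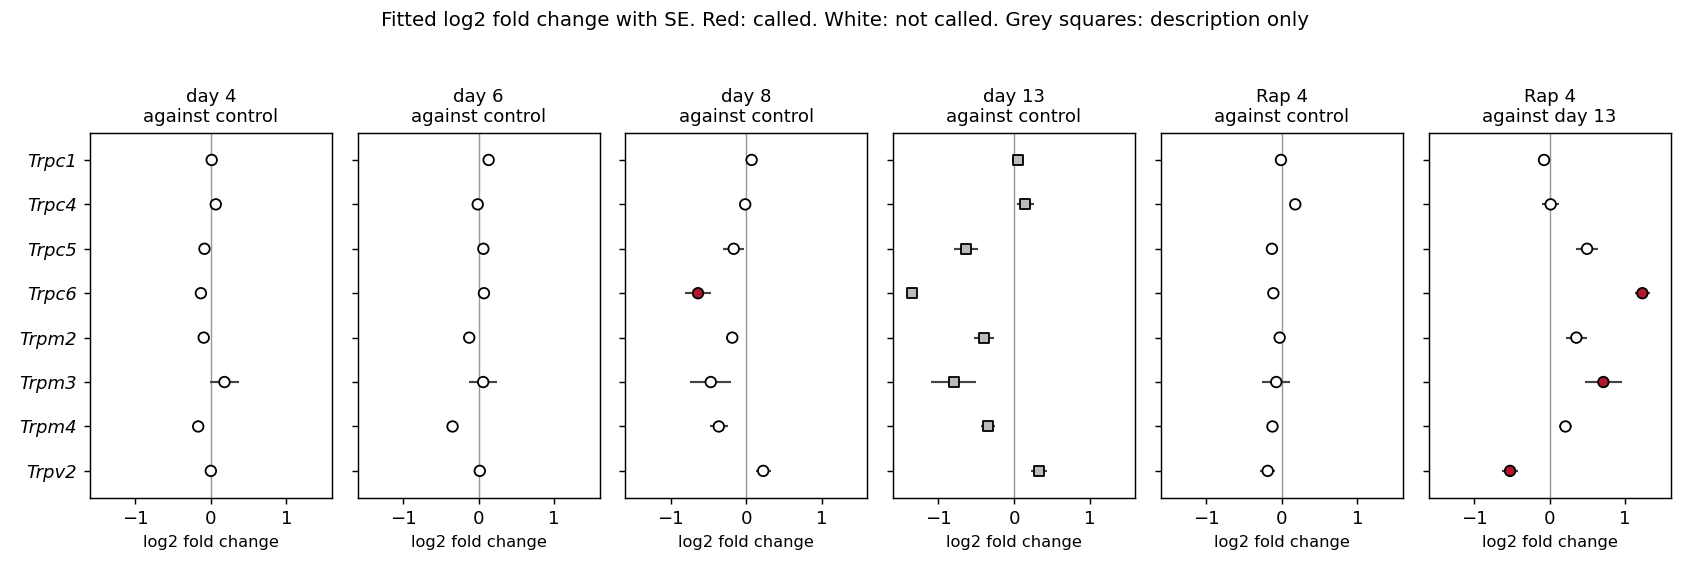
Fitted log2 fold change (x axis) with its standard error for 8 of the genes (rows) in 6 comparisons (panels). Red points were called at an adjusted p under 0.05 and a log2 fold change of at least 0.5, white points were not, and grey squares on day 13 against controls are descriptions. *Trpa1* is off this scale at −5.10 on day 13, and *Trpc6* moves from −0.64 on day 8 to −1.35 on day 13, with 1.23 between Rap 4 and day 13 mice.

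Among the other 18 TRP superfamily genes, 11 to 14 had enough counts to be tested, depending on the comparison. The highest per length were *Trpm7* (10.4 ± 0.275 CPM per kb in controls), a channel fused to a kinase, *Pkd2* (8.22 ± 0.135), the polycystin of primary cilia, and *Mcoln1* (4.22 ± 0.290 CPM per kb), the calcium channel of lysosomes. *Mcoln1* was the only one of 12 tested that was called on day 8, beside 3.99% of all genes. It was higher by 0.51 on the log2 scale (SE 0.0897, adjusted p = 0.00497, edgeR's quasi-likelihood test). It was at 31.5, 29.2, 34.5 and 32.3 CPM in controls, 51.3, 48.9, 39.8 and 40.3 CPM on day 8 and 31.4, 32.1, 30.1 and 33.1 CPM in Rap 4 mice. Day 4 mice had 36.3 to 41.5, day 6 mice 35.2 to 38.7 and day 13 mice 35.96 to 46.2 CPM, so that every mouse of days 4 to 13 lay above every control. The differences of 0.28 on day 4 (adjusted p = 0.0268) and 0.23 on day 6 (adjusted p = 0.0181, edgeR's quasi-likelihood test) passed the p but not the fold minimum. On day 8, 5 of 8 fits without 1 mouse kept the call. None of those tested was called on day 4 (0.68% of all genes), on day 6 (1.32%) or between day 8 and day 6 (0.229%). The same held in Rap 4 mice against controls (1.41% of all genes) and against day 13 (21.1%). *Mcoln1* (adjusted p = 5.17e-05), *Pkd2* (0.0134) and *Trpm7* (0.0295) differed among the groups without day 13 by edgeR's F test. They were 3 of 14 tested, beside 31.1% of all genes. *Trpm1*, an ion channel of retinal bipolar cells and pigment cells, had 1 to 10 counts per control mouse (0.0185 to 0.158 CPM). Day 13 mice had 13 to 47 counts (0.197 to 0.398 CPM). The day 13 log2 fold change of *Trpm1* from controls, 2.05, was past both thresholds, as for 16.5% of all genes, and nothing is read from it. The promoter window of *Mcoln1* (RefSeq, chr8:3500269-3500568, plus strand, GRCm38.p6) is shown because, unlike any window of the 9 genes, it holds CACGTG, here 2 times, in capitals with 1 GC box. Among the other TRP genes, CACGTG was also in windows of *Trpm7*, there 2 times as well, *Mcoln2*, *Trpm1* and *Trpv3*.
Mcoln1: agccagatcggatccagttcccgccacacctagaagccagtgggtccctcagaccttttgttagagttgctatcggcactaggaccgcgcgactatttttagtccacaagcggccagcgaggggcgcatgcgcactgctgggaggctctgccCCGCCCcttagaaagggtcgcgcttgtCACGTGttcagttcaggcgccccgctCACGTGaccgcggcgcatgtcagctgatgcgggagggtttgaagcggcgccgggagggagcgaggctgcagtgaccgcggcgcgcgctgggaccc

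The 37 genes of the pathways that open or scaffold these channels (receptors coupled to phospholipase C, Homer proteins, IP3 receptors, store-operated entry, ADP-ribose metabolism, calmodulin and neurotrophin genes) were all tested. None was called on day 4 (0.68% of all genes), on day 6 (1.32%), in Rap 4 mice against controls (1.41%) or between day 8 and day 6 (0.229%). On day 8, 2 rose and 1 fell, when 3.99% of all genes tested were called. *Homer3*, of the postsynaptic Homer scaffolds that bind TRPC1 and glutamate receptors, rose by 0.67 (SE 0.110, adjusted p = 0.00347), from 26.1 ± 2.41 to 41.3 ± 6.92 CPM. *Bdnf*, the neurotrophin whose receptor signals through phospholipase C to TRPC channels, rose by 0.96 (SE 0.256, adjusted p = 0.0322). *Itpr1*, the main neuronal IP3 receptor, fell by 0.52 (SE 0.120, adjusted p = 0.0173), all by edgeR's quasi-likelihood test. The calls were kept in 8, 3 and 5 of 8 fits without 1 mouse, in that order.

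On day 13, given without a test, the log2 fold change from controls was 1.83 for *Bdnf*, 1.32 for *Homer1*, 0.92 for *Homer3* and −0.88 for *Abcc8*. Between Rap 4 and day 13 mice 10 of the 37 pathway genes were called, 3 higher and 7 lower, beside 21.1% of all genes. The largest were *Bdnf* at −2.19 (SE 0.266, adjusted p = 6.41e-04), *Homer1* at −1.39 (SE 0.341, adjusted p = 0.0132), *Abcc8*, the SUR1 subunit that also associates with TRPM4, at 0.94 (SE 0.262, adjusted p = 0.0221), and *Homer3* at −0.81 (SE 0.114, adjusted p = 0.00116) by edgeR's quasi-likelihood test. Among the groups without day 13, 20 of the 37 differed by edgeR's F test, beside 31.1% of all genes.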

How the data were processed

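Total RNA of 24 hippocampi was read as stranded paired-end libraries. The authors trimmed reads with CutAdapt 1.16.5, aligned them with STAR 2.7.2b to GRCm38 and counted them per GENCODE gene with featureCounts 1.6.4, and deposited whole-number counts without normalization. Strand and read-pair settings of the counting are not given in the sources used here. Symbols and exon lengths came from GENCODE M21 (55144 of 55385 identifiers matched). Each pair of groups was compared on its 8 mice with edgeR 4.0.16 in R 4.3.3 (filterByExpr, TMM, quasi-likelihood test, Benjamini-Hochberg over all genes tested), and the 5 groups without day 13 by its F test. Calls needed an adjusted p under 0.05 and, between 2 groups, an absolute log2 fold change of 0.5 or more. Levels are CPM with TMM factors. Alternatives were DESeq2 1.42.0, all 24 mice in 1 fit, other scaling, filters and covariates, thinning, blocks and each mouse left out. The fits were tested on simulated data. The 9 genes and all gene lists were chosen with earlier results of these data known. One further TRP gene is not reported here. All 9 genes are named, as are other TRP genes that were called or among the 3 highest per length, and at most 4 called pathway genes per comparison with a mean of at least 1 CPM. The labels name each animal but no shared litter, so p-values measure the spread between these mice. Same-letter mice did not deviate together (correlations −0.22 to 0.28).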

Additional observations from a re-analysis of the deposited data

Results flagged for a closer look

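Of 54 group values of the 9 genes checked (4 mice each), 3 held a mouse whose gap to the nearest of the others took more of the group's range than Dixon's limit for 4 samples, which chance exceeds in about 1 of 20 groups. At that rate, chance alone would flag about as many of the 54, so nothing is read from their number. *Trpc6* was at 63.2 CPM in day 8 mouse D, with a gap of 0.884 of the range. *Trpm3* was at 324 CPM in control mouse B, with a gap of 0.985, and that mouse had 1511 CPM of *Ttr*. *Trpc4* was at 96.2 CPM in Rap 4 mouse B, with a gap of 0.889.

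The effect on day 13 differed from that in Rap 4 mice, by the direct comparison of both groups with edgeR's quasi-likelihood test, for *Trpc6* (log2 fold change 1.23, adjusted p = 1.54e-04, higher in 4 of 4 Rap 4 mice than in any day 13 mouse), *Trpm3* (0.71, adjusted p = 0.0468, with overlapping mice) and *Trpv2* (−0.52, adjusted p = 0.00697, lower in 4 of 4).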

How the results depend on the processing

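Calls among the 9 genes changed little by scaling or by the study's own filter. On day 6 the count of 1 became 0 with DESeq2, which gave *Trpa1* no adjusted p, and with edgeR on all 24 mice, and 2 with no fold minimum. On day 8 the 1 became 2 on all 24 mice and with no filter. Day 13 gave 5 in place of 3 with no fold minimum, and Rap 4 against day 13 gave 2 in place of 4 after thinning, which left *Trpa1* untested and *Trpv2* just under the fold minimum. Day 8 against day 6 gave 1 in place of 0 with DESeq2, on all 24 mice and with no filter. With 1 mouse left out, the counts ranged from 0 to 0 on day 4, 0 to 1 on day 6, 0 to 2 on day 8, 2 to 4 on day 13, 0 to 0 in Rap 4 mice against controls, 2 to 5 for Rap 4 against day 13, 0 to 2 for day 8 against day 6, and 2 to 4 without day 13.

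Directions turned only where the fold change was near 0. *Trpv2* turned on day 4 on all 24 mice (−0.000598), with *Xist* as covariate (−0.0721) and after thinning (−0.0378), and on day 6 with *Xist* (−0.0477) and thinning (−0.0235). *Trpc4* turned on day 6 with *Ttr* (0.00858) and thinning (0.015), on day 8 on all 24 mice (0.00027) and with thinning (0.00988), for day 8 against day 6 on all 24 mice (0.000811), and for Rap 4 against day 13 with DESeq2 (−0.00498). *Trpm3* turned with *Ttr* on day 6 (−0.0743) and in Rap 4 mice (0.0851), and *Trpm4* for day 8 against day 6 with *Xist* (0.0096). With 1 mouse left out, turns were seen for *Trpc1* on day 4 (−0.00842 to 0.0516) and in Rap 4 mice (−0.0291 to 0.00394), *Trpv2* on day 4 (−0.0601 to 0.0579) and day 6 (−0.0466 to 0.0757), *Trpc4* on day 6 (−0.042 to 0.0313), day 8 (−0.0656 to 0.0362), day 8 against day 6 (−0.0614 to 0.0311) and Rap 4 against day 13 (−0.0577 to 0.15), *Trpm3* on day 6 (−0.0273 to 0.354) and in Rap 4 mice (−0.182 to 0.218), *Trpm2* in Rap 4 mice (−0.0738 to 0.0227) and day 8 against day 6 (−0.146 to 0.000481), and *Trpm4* for day 8 against day 6 (−0.131 to 0.0477). The cause was not tested.

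The letters do not pair the mice. With the letter as a replicate block, 5 of the 9 genes were called for Rap 4 against day 13, *Trpc6* on day 8 was at −0.69 (adjusted p = 0.0298, edgeR), and no call of the 9 genes was lost. Over all genes, edgeR on all 24 mice called 29 genes on day 4 in place of 172, 84 on day 6 in place of 332 and 162 in Rap 4 mice against controls in place of 352, and with *Xist* as covariate day 4 gave 107 and day 6 gave 195. Day 8 against day 6 gave 57 genes, and 310 with DESeq2, 192 with no filter, 96 on all 24 mice and 0 with either covariate. Depth limits *Trpa1*, with at most 71 counts in any mouse.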
